A study of Mus musculus with 46 samples.

Results

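The members described here are 9 genes whose enzymes make or interconvert amino acids around glutamate: Pycr1 and Aldh18a1 (proline), Asns (asparagine), Gpt2, Got2 and Bcat1 (transaminases), Glud1 (glutamate dehydrogenase), and Cth and Cbs (transsulfuration). They were selected by gene symbol, with no threshold on a measured value but with earlier results of these data known, so their counts are a description and not independent evidence. All 9 were found among the 55487 genes listed in each deposited table. RNA from mouse islets and livers was sequenced in 46 libraries of 11 groups. Islets labelled Tfam control (5 female and 3 male libraries) or Tfam KO (4 female and 2 male) formed the first experiment. Islets labelled Clec control (4 on RFD and 6 on HFD) or Clec KO (4 on RFD and 5 on HFD) formed the second, with diets that the labels do not write out. Livers labelled control (6), Mfn DKO (4) or Tfam KO (3) formed the third, and the descriptions of all 13, controls included, carry the letters AAV. The islets had been kept in culture overnight, and the livers had been frozen. The promoter or Cre that limits each deletion, the strain, the age and what the AAV carried are not given in the sources used here. The titles call the libraries biological replicates, but which animals or pools they came from is not given either.

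Proline is built from glutamate inside mitochondria. Aldh18a1 encodes the enzyme that turns glutamate into the pyrroline intermediate, and Pycr1 the mitochondrial reductase that completes proline, with oxidation of NAD(P)H. Transaminases move amino groups between glutamate and keto acids, so that they link amino acid supply to the citric acid cycle, and Glud1 releases the same nitrogen as ammonia. In the liver these reactions feed urea and glucose synthesis, and in β cells Glud1 is known as a regulator of amino acid-stimulated insulin release. Cbs and Cth carry sulfur from homocysteine to cysteine, the limiting amino acid of glutathione. Asns, which makes asparagine from aspartate, is a textbook target of ATF4, the transcription factor that is translated when cells lack amino acids or when their mitochondria or endoplasmic reticulum are under stress.

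ATF4 binds the amino acid response element, searched here as TGATGNAAN on both strands. Promoter windows of 300 bases (250 before to 50 after the start site, RefSeq, GRCm38.p6) were matched for 8 of the 9 members, all but Cth, with 9 windows in all since Bcat1 has a pair of start sites. The element was found in the windows of Pycr1 and Asns. Among all 32851 promoter windows of this length, 3.954% hold it. The antioxidant response element, searched as TGACNNNGC on both strands, was found among the members only in the Asns window, on the strand opposite to the gene. It is in 12.39% of all windows. The matches are shown because Pycr1 was called higher in all 5 knockout comparisons that follow and Asns had the largest fold changes in livers, and the capitals mark the matched letters. The Pycr1 match lies at positions -103 to -95 relative to the start site, within chr11:120643798-120643896, minus strand. The Asns matches lie at -23 to -15, within chr6:7693210-7693277, and at -172 to -164, within chr6:7693328-7693426, both shown on the minus strand of the gene.
Pycr1, amino acid response element: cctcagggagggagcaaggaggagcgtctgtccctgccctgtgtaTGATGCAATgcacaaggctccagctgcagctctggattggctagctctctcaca
Asns, amino acid response element: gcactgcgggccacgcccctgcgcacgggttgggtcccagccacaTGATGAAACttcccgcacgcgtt
Asns, antioxidant response element: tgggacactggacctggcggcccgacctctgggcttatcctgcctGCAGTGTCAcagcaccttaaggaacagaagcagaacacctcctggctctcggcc
A match of letters is no evidence of binding, and the other windows lacking them says only that these letters are not in those windows.

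Library totals lay between 55223041 and 83342809 counts for Tfam islets, between 16235173 and 55810879 for Clec16a islets and between 41961114 and 56894510 for livers. Values below are CPM on library sizes scaled by TMM within an experiment, unless TPM is named. Tfam was lower in every Tfam KO library than in every control of its tissue, and Mfn1 and Mfn2 were lower in every Mfn DKO liver. The Clec16a transcript itself showed no drop under the KO label (24.3 CPM in controls and 26.5 in KO on RFD, 26.6 and 28.1 on HFD), so it does not check those labels. A pair of libraries stood apart from their groups. In Clec16a KO replicate 4 on HFD the mean log2 CPM of 13 stress-response genes was 3.28, against 5.64 to 5.93 in the other 4 libraries of its group and 3.22 to 3.83 in the HFD controls. In Tfam KO liver replicate 3 it was 4.60, against 5.93 and 6.73 in the other 2 and 2.02 to 2.95 in control livers, although its Tfam level (15.9 CPM) was as low as theirs (14.99 and 13.1). Values without them are given beside the tests, batch differences, isozyme shares and list counts they enter, and the order of levels and the correlations at the end include them. Both libraries were set apart after their values were seen, by genes that rise in the same knockouts as several members. Larger changes and smaller p-values without these libraries were therefore to be foreseen and are no separate support. Defining markers fit the labelled tissues: 8 β-cell markers summed to at least 105715 CPM in each islet library and to at most 498 in each liver, and 8 hepatocyte markers (Ttr among them, which α cells also express) to at least 21867 CPM in each liver and at most 6524 in each islet library.

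In controls the 9 members split by tissue, which here also means by experiment, so that tissue and experiment cannot be told apart. Levels of different genes are compared only as deposited TPM, which is scaled by transcript length. Over the 18 control islet libraries Asns had a median of 77.4 TPM (60.3 to 123), Glud1 54.5 (40.0 to 83.5) and Aldh18a1 49.2 (36.0 to 70.1). Their ranges overlap, and the order depends on the experiment: in the 8 Tfam controls Glud1 (76.0) was above Asns (67.4). Got2 had a median of 22.1 TPM, Cbs 21.8, Pycr1 17.1 and Gpt2 3.58. Cth was near the bottom at 0.472 TPM (0.146 to 1.08), and Bcat1 was almost silent at 0.0197 TPM (0 to 0.0626).

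In the 6 control livers Glud1 led with 823 TPM (650.4 to 997), followed by Cth at 260.0 (202 to 376), Got2 at 166 (146 to 179.8), Gpt2 at 143 (99.9 to 260.2) and Cbs at 119.9 (77.2 to 158). The proline and asparagine enzymes were low: Aldh18a1 at 0.854 TPM (0.594 to 1.08), Asns at 0.524 (0.220 to 1.71) and Pycr1 at 0.262 (0.172 to 0.422). Bcat1 had a median of 0 TPM and reached at most 0.0195. Except for Bcat1, the control islet and control liver ranges of each member did not overlap. The share of all genes with such separate ranges was not computed, so this is not shown to be particular to the members.

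**Figure D1:**
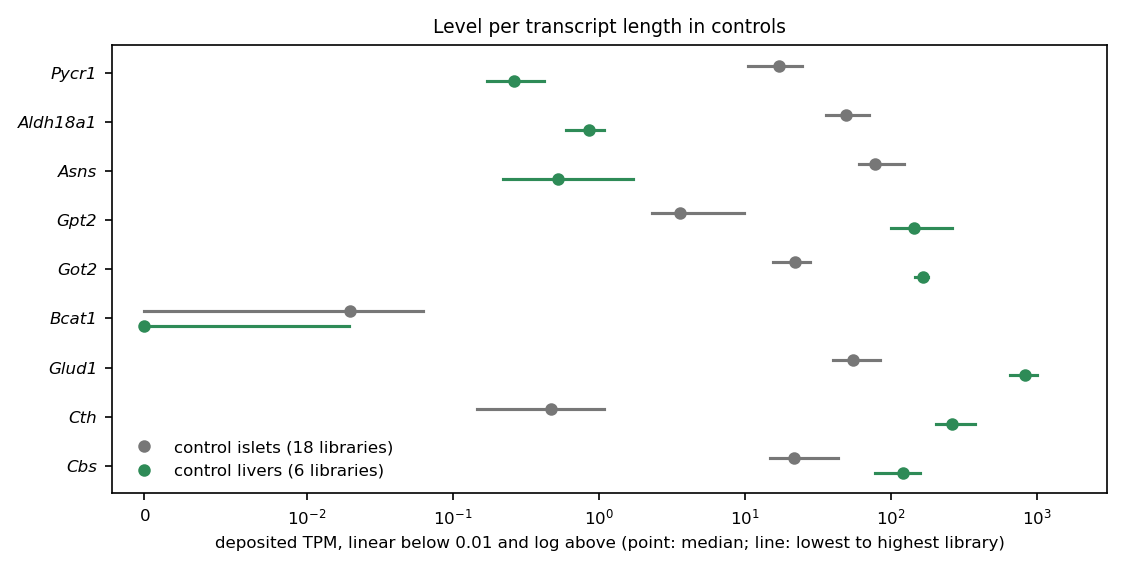
Deposited TPM (x axis, linear below 0.01 and logarithmic above) of the 9 members in 18 control islet libraries (grey) and 6 control livers (green), with the median as a point and the lowest to highest library as a line. Pycr1, Aldh18a1 and Asns lie to the right in islets and Gpt2, Got2, Glud1, Cth and Cbs in livers, with medians from 0.262 TPM (Pycr1) to 823 TPM (Glud1) in livers for members other than Bcat1.

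Against these baselines, the proline, asparagine and alanine enzymes were the members that rose most often across the 5 comparisons of a knockout with its own controls. Pycr1 and Aldh18a1 were called higher in all 5, Asns and Gpt2 in 4 of 5, and Bcat1 in 2 of the 3 in which it could be tested. Glud1 was called in none of its 5 tests by the edgeR quasi-likelihood test, and in none of them was its p under 0.05. Calls throughout are genes whose Benjamini-Hochberg adjusted p, taken over every gene in the fit, did not exceed 0.05.

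In Tfam KO islets 6 of the 9 members were called higher, with a median log2 fold change over the 9 of 0.58, against -0.01 over all 19752 genes tested. In the same fit 11.6% of all genes were called higher and 9.29% lower. On RFD, 5 of 9 members were called higher in libraries labelled Clec16a KO, where 3.99% of 17254 genes were called higher and 3.54% lower. On HFD it was 4 of 9, where 5.62% were called higher and 3.95% lower. Without Clec16a KO replicate 4 on HFD, 5 of 9 were called higher, and 10.5% of all genes were. In Mfn DKO livers 4 of the 8 members tested were called higher, where 5.23% of 17024 genes were called higher and 4.64% lower. In Tfam KO livers 3 of 8 were called higher and 1 lower, where 18.1% were called higher and 11.3% lower. Without Tfam KO liver replicate 3 these member counts were again 3 and 1, where 22.8% of all genes were called higher and 18.99% lower. Bcat1 did not pass the filter on low counts in livers. The median log2 fold change of the members was 0.75 on RFD, 0.62 on HFD, 0.94 in Mfn DKO livers and 0.25 in Tfam KO livers, against medians within 0.03 of 0 over all genes.

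**Figure D2:**
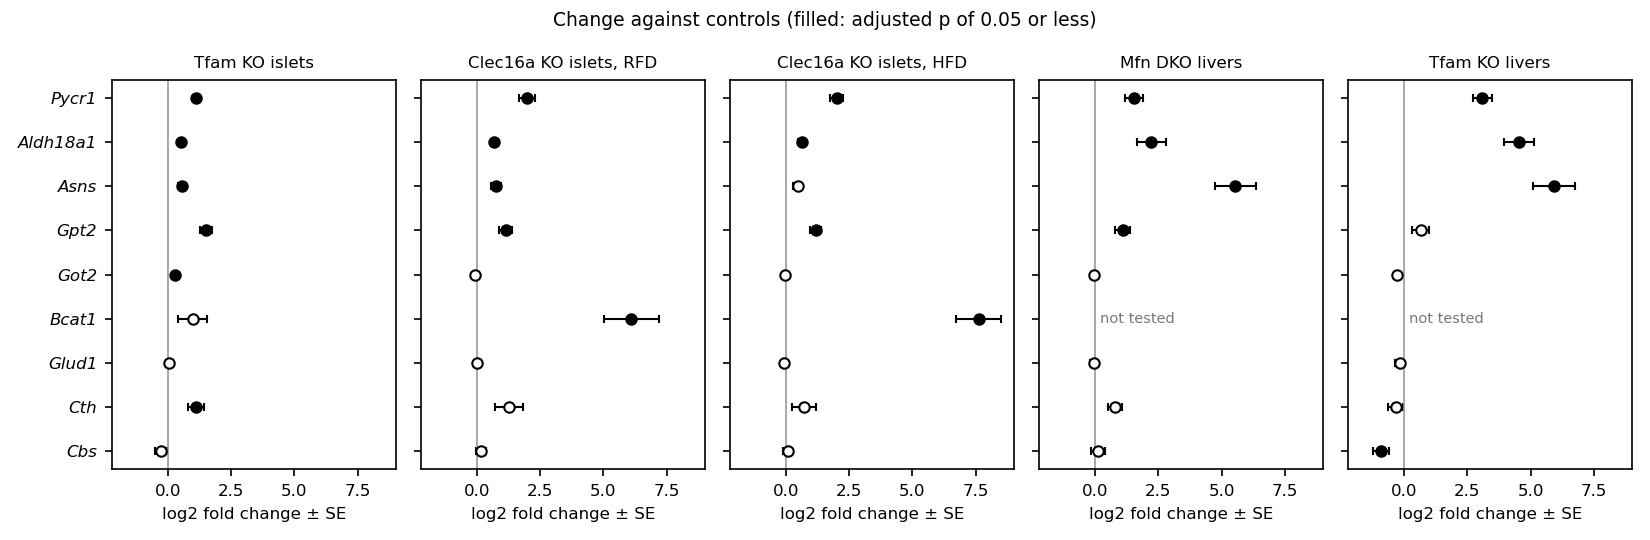
Log2 fold change of each member against the controls of its own experiment (x axis, point ± SE from the edgeR fit), with filled points for an adjusted p of 0.05 or less and open points otherwise. Pycr1 and Aldh18a1 are filled in all 5 panels, Asns reaches 5.54 and 5.93 in livers, and Glud1 has open points in each panel.

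Pycr1 (ENSMUSG00000025140, GRCm38 chromosome 11, 120635712 to 120643769, minus strand) encodes the reductase of the last step of mitochondrial proline synthesis. In the 8 Tfam control islet libraries it ran from 18.3 to 32.3 CPM with a median of 23.5, and in the 6 Tfam KO libraries from 47.5 to 59.4 with a median of 51.4. All KO libraries therefore lay above all controls. In this comparison the log2 change was 1.11 (SE 0.12, adjusted p = 5.38e-06, edgeR), or 2.16 times in mean CPM. Here and in the other results from bulk islets or liver, a change in the share of a cell type and a change of RNA per cell cannot be told apart.

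Pycr1 rose further in libraries labelled Clec16a KO. On RFD the controls had 23.7, 47.0, 31.1 and 34.3 CPM and the KO libraries 122, 154.5, 131 and 136. The groups were far apart, and the log2 fold change was 1.99 (SE 0.31, adjusted p = 0.00208, edgeR). On HFD the 6 controls ran from 32.6 to 43.3 CPM with a median of 39.1, and the KO libraries had 211, 173, 185, 41.2 and 171. Replicate 4, at 41.2 CPM, fell within the controls, and the other 4 lay above all of them. On HFD the log2 fold change was 2.002 (SE 0.26, adjusted p = 2.59e-04) and became 2.25 (SE 0.13, adjusted p = 1.23e-09) without replicate 4, both from edgeR.

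In livers Pycr1 stayed below 7 CPM in every library, yet moved in both knockouts. The control livers ran from 0.317 to 0.775 CPM with a median of 0.485. The Mfn DKO livers had 1.78, 1.70, 1.65 and 1.03 CPM, and the Tfam KO livers 5.49, 6.47 and 1.61. Every knockout liver was above every control, with replicate 4 of the Mfn DKO and replicate 3 of the Tfam KO the lowest of their groups. On the log2 scale the change was 1.54 (SE 0.37, adjusted p = 0.0225, edgeR) in Mfn DKO livers and 3.10 (SE 0.39, adjusted p = 5.16e-04, edgeR) in Tfam KO livers. The Mfn DKO call was lost when control replicate 6 or Mfn DKO replicate 1, 2 or 3 was left out, with adjusted p from 0.0518 to 0.0674 in edgeR. The Tfam KO call held in each of the 13 fits that left out a liver, with log2 fold changes from 2.75 to 3.48.

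Aldh18a1 (ENSMUSG00000025007, chromosome 19, 40550257 to 40588463, minus strand) encodes the enzyme of the step before, and a processed pseudogene on the same strand, Gm15801, overlaps it. In Tfam control islets it ran from 80.2 to 127 CPM with a median of 97.5, and in Tfam KO islets from 126 to 154 with a median of 143. The groups met at their edges, where 5 of 6 KO libraries lay above all controls. Its log2 fold change was 0.51 (SE 0.08, adjusted p = 3.92e-04, edgeR), or 1.42 times in mean CPM, less than that of Pycr1.

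The libraries labelled Clec16a KO showed a similar rise of Aldh18a1. On RFD the controls had 84.9, 95.6, 79.4 and 83.0 CPM and the KO libraries 117, 141.5, 135 and 162. No KO library overlapped a control, and the log2 fold change was 0.70 (SE 0.15, adjusted p = 0.00966, edgeR). On HFD the controls ran from 91.8 to 129 CPM with a median of 96.7, and the KO libraries had 165, 176, 173, 101 and 168. Again replicate 4, at 101 CPM, was within the controls and the other 4 were above them. The edgeR log2 fold change was 0.62 (SE 0.13, adjusted p = 0.00464), and 0.75 (SE 0.10, adjusted p = 2.32e-05) without that replicate.

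In livers, where Aldh18a1 starts low, the changes were larger. The control livers ran from 1.19 to 1.99 CPM with a median of 1.58, and the Mfn DKO livers had 7.39, 8.34, 7.18 and 7.35. The Mfn DKO livers were close together and all above the controls. Their log2 fold change was 2.23 (SE 0.56, adjusted p = 0.0264, edgeR), but leaving out control replicate 1, 2 or 6 or any Mfn DKO liver gave adjusted p from 0.0531 to 0.0642. The Tfam KO livers had 27.1, 82.4 and 2.95 CPM. This is a wide spread, with replicate 3 just above the controls. The log2 fold change was 4.54 (SE 0.60, adjusted p = 7.49e-04, edgeR), 3.23 without replicate 2 and 5.07 (SE 0.29, adjusted p = 5.36e-07) without replicate 3.

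Asns (ENSMUSG00000029752, chromosome 6, 7675169 to 7693254, minus strand), the asparagine synthetase, had the largest changes among the members tested in livers. In control livers it ran from 0.265 to 2.19 CPM with a median of 0.676. The Mfn DKO livers had 73.1, 38.7, 47.1 and 24.4 CPM, and the Tfam KO livers 50.7, 126 and 3.13. All 7 knockout livers were above all 6 controls, and only Tfam KO replicate 3 came near them. In this comparison the log2 change was 5.54 (SE 0.80, adjusted p = 0.00166, edgeR) in Mfn DKO livers, or 46.1 times in mean CPM. It was 5.93 (SE 0.83, adjusted p = 8.42e-04, edgeR) in Tfam KO livers, with 4.79 without replicate 2 and 6.47 (SE 0.58, adjusted p = 8.62e-06) without replicate 3. Both calls held in all 13 fits that left out a liver.

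Islets, where Asns was already abundant, moved less. Tfam control islets ran from 74.9 to 149.6 CPM with a median of 98.2, and Tfam KO islets from 134 to 172 with a median of 155. The ranges overlapped, since 5 of 6 KO libraries exceeded every control. On the log2 scale the change was 0.58 (SE 0.15, adjusted p = 0.0118, edgeR). On RFD the Clec16a controls had 87.6, 101, 79.0 and 106 CPM and the KO libraries 111, 143, 177 and 198. Those groups did not overlap, and the log2 fold change was 0.75 (SE 0.20, adjusted p = 0.0279, edgeR). This RFD call was lost without control replicate 1 or 3 or KO replicate 3 or 4, with adjusted p from 0.0728 to 0.0970. On HFD the controls ran from 106 to 164 CPM with a median of 110.4, and the KO libraries had 189, 172, 151.5, 104 and 219.5. Replicate 4 was below all controls and replicate 3 below the highest control. The difference did not pass the test (log2 fold change 0.47, SE 0.17, adjusted p = 0.0956, edgeR), but it did without KO replicate 4 (0.60, SE 0.15, adjusted p = 0.00896), without control replicate 1 (adjusted p = 0.0414) and, with all libraries kept, with an exocrine score as a covariate (0.52, adjusted p = 0.0212).

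**Figure D3:**
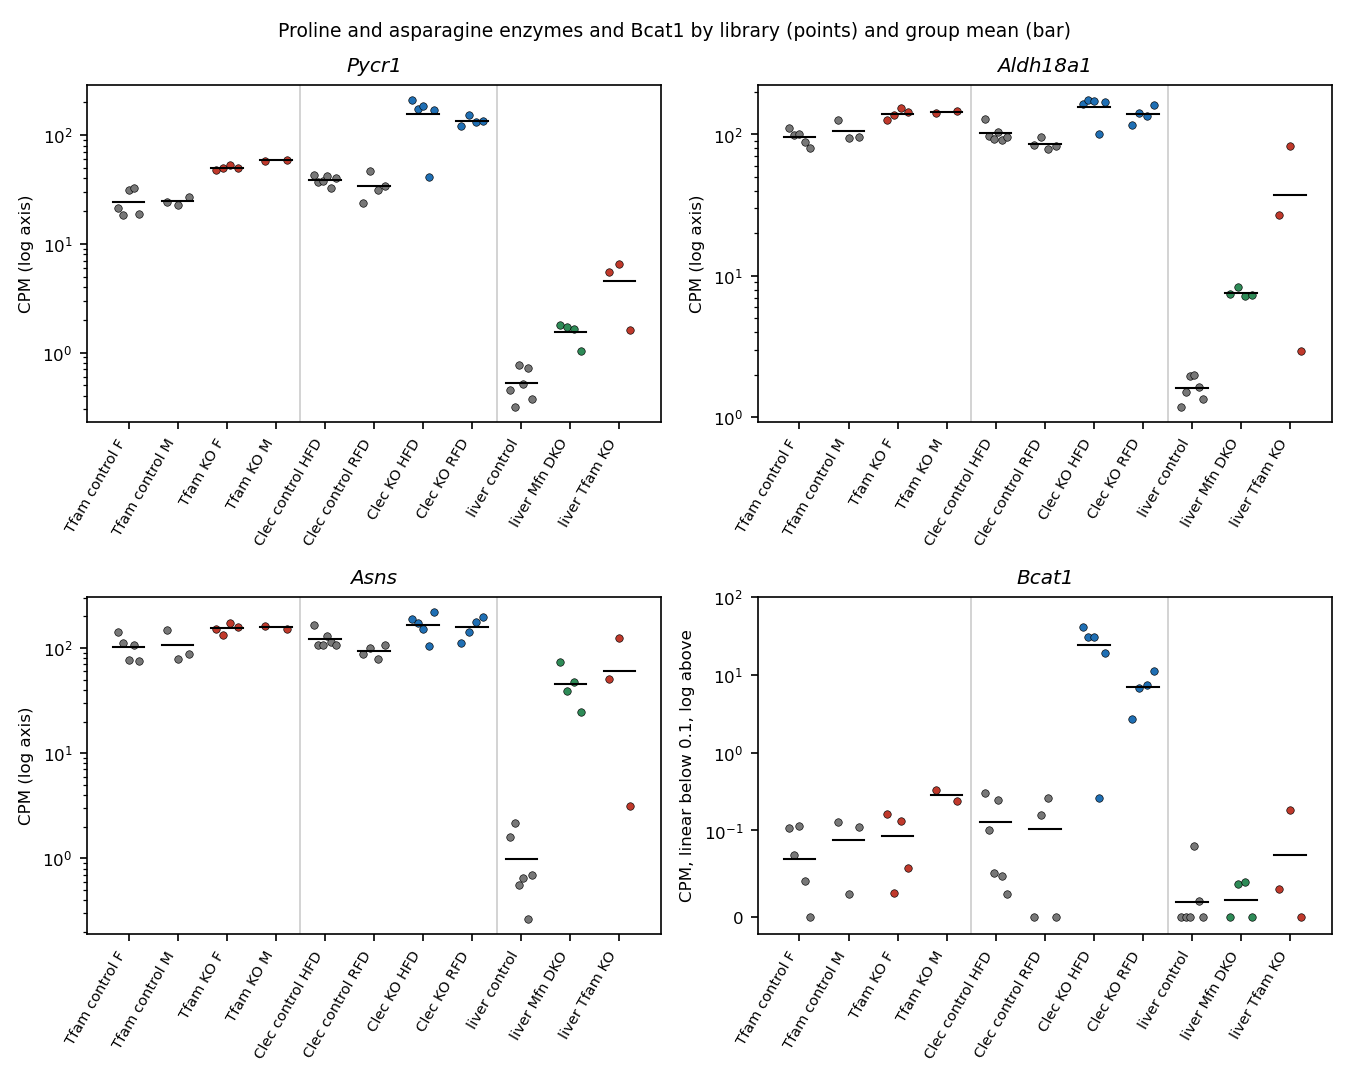
CPM of Pycr1, Aldh18a1, Asns and Bcat1 in each library (points, logarithmic y axis, for Bcat1 linear below 0.1), with a bar at the group mean; grey marks controls, red Tfam KO, blue the libraries labelled Clec16a KO and green Mfn DKO. Clec16a KO replicate 4 on HFD sits with the controls at 41.2 CPM for Pycr1 and 0.262 for Bcat1.

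Bcat1 (ENSMUSG00000030268, chromosome 6, 144993835 to 145076184, minus strand), the cytosolic transaminase of branched-chain amino acids, went from near silence to a clear signal in the libraries labelled Clec16a KO. The antisense genes Gm26666 and Gm15687 overlap it, and whether counting used strand is not given, so their reads and its own cannot be told apart. On RFD the controls had 0, 0.156, 0.264 and 0 CPM (at most 7 counts), and the KO libraries 2.69, 6.77, 7.27 and 11.1 (47 to 627 counts). Every KO library was above every control, by 66.1 times in mean CPM. On HFD the controls had at most 0.306 CPM (9 counts), and the KO libraries 41.2, 30.8, 30.5, 0.262 and 18.9. Replicate 4, with 10 counts, was within the controls, while the other 4 had at least 311 counts.

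The fitted log2 fold change of Bcat1 was 6.11 (SE 1.08, adjusted p = 0.00377, edgeR) on RFD and 7.61 (SE 0.88, adjusted p = 1.12e-04, edgeR) on HFD, and 7.94 (SE 0.50, adjusted p = 2.26e-09) on HFD without replicate 4. It was 6.74 on RFD without control replicate 3. With controls at a few counts the size of these estimates depends on the prior count of the fit. In Tfam KO islets Bcat1 had 0.0276 to 0.328 CPM, against 0 to 0.129 in Tfam controls, and the difference did not pass the test (log2 fold change 0.99, SE 0.57, adjusted p = 0.248, edgeR). All livers had 14 counts or fewer.

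Gpt2 (ENSMUSG00000031700, chromosome 8, 85492576 to 85527560, plus strand), the mitochondrial alanine transaminase, rose in all 3 islet comparisons. Tfam control islets ran from 7.19 to 24.0 CPM with a median of 10.3, and Tfam KO islets from 24.2 to 50.5 with a median of 35.8. The groups did not overlap, although their edges nearly touched, and the male KO libraries were the highest. Its log2 fold change was 1.51 (SE 0.24, adjusted p = 3.34e-04, edgeR), the largest of the called members in this comparison. On RFD the Clec16a controls had 7.56, 7.80, 8.02 and 11.4 CPM and the KO libraries 15.03, 19.7, 19.98 and 21.6. All KO libraries were above all controls (log2 fold change 1.14, SE 0.27, adjusted p = 0.0146, edgeR), and the adjusted p was 0.0527 without control replicate 3. On HFD the controls ran from 6.73 to 14.7 CPM with a median of 9.59, and the KO libraries had 24.1, 32.4, 23.1, 10.2 and 24.4. All but replicate 4 were above the controls. The log2 fold change was 1.17 (SE 0.23, adjusted p = 0.00325, edgeR), and 1.37 (SE 0.18, adjusted p = 2.40e-05) without replicate 4.

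In livers Gpt2 was already high and its spread wide. Controls ran from 255 to 720.5 CPM with a median of 368. The Mfn DKO livers had 1071, 769, 1222 and 573, and the Tfam KO livers 733, 759.7 and 521. In the Mfn DKO group 3 of 4 exceeded every control, and the log2 fold change of 1.10 (SE 0.31, adjusted p = 0.0407, edgeR) was called in only 5 of the 13 fits that left out a liver. The call was lost without control replicate 1, 2, 3, 4 or 5 or Mfn DKO replicate 1, 2 or 3, with adjusted p up to 0.118. In Tfam KO livers the log2 fold change of 0.66 (SE 0.33, adjusted p = 0.152, edgeR) did not pass, nor did it without replicate 3 (0.79, adjusted p = 0.113). The liver groups hold both sexes, which the fit does not model, and Gpt2 was called higher there once Xist entered as a covariate (0.95, adjusted p = 0.0101).

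Got2 (ENSMUSG00000031672, chromosome 8, 95864134 to 95888547, minus strand), the mitochondrial aspartate transaminase of the malate-aspartate shuttle, changed in 1 of the 5 comparisons. Tfam control islets ran from 48.2 to 64.3 CPM with a median of 56.2, and Tfam KO islets from 64.4 to 73.7 with a median of 66.8. The groups were separate by a margin of less than 1 CPM. In this comparison the log2 change was 0.29 (SE 0.07, adjusted p = 0.00762, edgeR), or 1.22 times. In the Clec16a islets KO libraries lay between 38.9 and 48.4 CPM and controls between 39.4 and 49.2, with log2 fold changes of -0.08 (adjusted p = 0.627) on RFD and -0.02 (adjusted p = 0.884) on HFD by edgeR. In livers the controls ran from 329 to 425 CPM and the Mfn DKO from 318 to 398. The Tfam KO livers, at 316, 294 and 324 CPM, were all below the controls, but the difference did not pass (log2 fold change -0.26, SE 0.13, adjusted p = 0.148, edgeR), nor without replicate 3 (-0.31, adjusted p = 0.116).

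Glud1 (ENSMUSG00000021794, chromosome 14, 34310727 to 34345265, plus strand), glutamate dehydrogenase, held the narrowest set of fold changes. Its edgeR log2 fold changes were 0.06 (SE 0.07) in Tfam KO islets, 0.01 (SE 0.10) on RFD, -0.07 (SE 0.09) on HFD, -0.04 (SE 0.16) in Mfn DKO livers and -0.16 (SE 0.18) in Tfam KO livers. The adjusted p ran from 0.512 to 0.957, and was 0.261 on HFD without KO replicate 4 (-0.14) and 0.194 in Tfam KO livers without replicate 3 (-0.31). In Tfam islets the controls ran from 119 to 176 CPM and the KO libraries from 141 to 176. In livers the controls ran from 1344 to 1960 CPM, the Mfn DKO had 1642, 1397, 1483 and 1648, and the Tfam KO 1172, 1428 and 1651.

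Of the transsulfuration enzymes, Cth was called in Tfam KO islets and Cbs in Tfam KO livers. Cth (ENSMUSG00000028179, chromosome 3, 157894248 to 157925077, minus strand), which releases cysteine from cystathionine, was scarce in islets. Tfam controls ran from 0.356 to 1.80 CPM with a median of 0.637, and Tfam KO islets from 0.791 to 2.36 with a median of 1.71. The ranges overlapped, with 2 of 6 KO libraries above all controls. On the log2 scale the change was 1.14 (SE 0.32, adjusted p = 0.0170, edgeR). On RFD the Clec16a KO libraries (0.970 to 2.06 CPM) did not overlap their controls (0.355 to 0.713), yet the difference did not pass (log2 fold change 1.28, SE 0.56, adjusted p = 0.182, edgeR). On HFD it was 0.73 (SE 0.48, adjusted p = 0.406), and 0.999 (adjusted p = 0.130) without KO replicate 4.

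In livers Cth was among the abundant members. Controls ran from 260.0 to 491 CPM with a median of 339.6. The Mfn DKO livers had 836, 562, 717 and 408 CPM, and the Tfam KO livers 343, 191 and 338. In the Mfn DKO group 3 of 4 were above all controls, and the log2 fold change was 0.79 (SE 0.26, adjusted p = 0.0728, edgeR). It passed with DESeq2 (adjusted p = 0.0342), with the Xist level as a covariate (0.0111) and with only the 2 groups compared (0.0326). In the Tfam KO group the log2 fold change was -0.33 (SE 0.30, adjusted p = 0.429, edgeR), and -0.47 (adjusted p = 0.307) without replicate 3.

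Cbs (ENSMUSG00000024039, chromosome 17, 31608894 to 31637238, minus strand), which joins homocysteine and serine to cystathionine, was called only in Tfam KO livers, and lower. Controls ran from 284 to 553 CPM with a median of 423, and the Tfam KO livers had 202, 116 and 338. Replicates 1 and 2 were below all controls and replicate 3 within them. Its log2 fold change was -0.89 (SE 0.31, adjusted p = 0.0463, edgeR). It was called in 3 of the 13 fits that left out a liver: those without control replicate 5 or 6 or Tfam KO replicate 3, the last with -1.37 (SE 0.31, adjusted p = 0.00348). The other 10, without control replicate 1, 2, 3 or 4, any Mfn DKO liver or Tfam KO replicate 1 or 2, gave adjusted p from 0.0518 to 0.178. In Mfn DKO livers (461, 572, 343 and 408 CPM) the log2 fold change was 0.14 (SE 0.27, adjusted p = 0.778), and in the 3 islet comparisons it lay between -0.26 and 0.16 with adjusted p of at least 0.487.

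**Figure D4:**
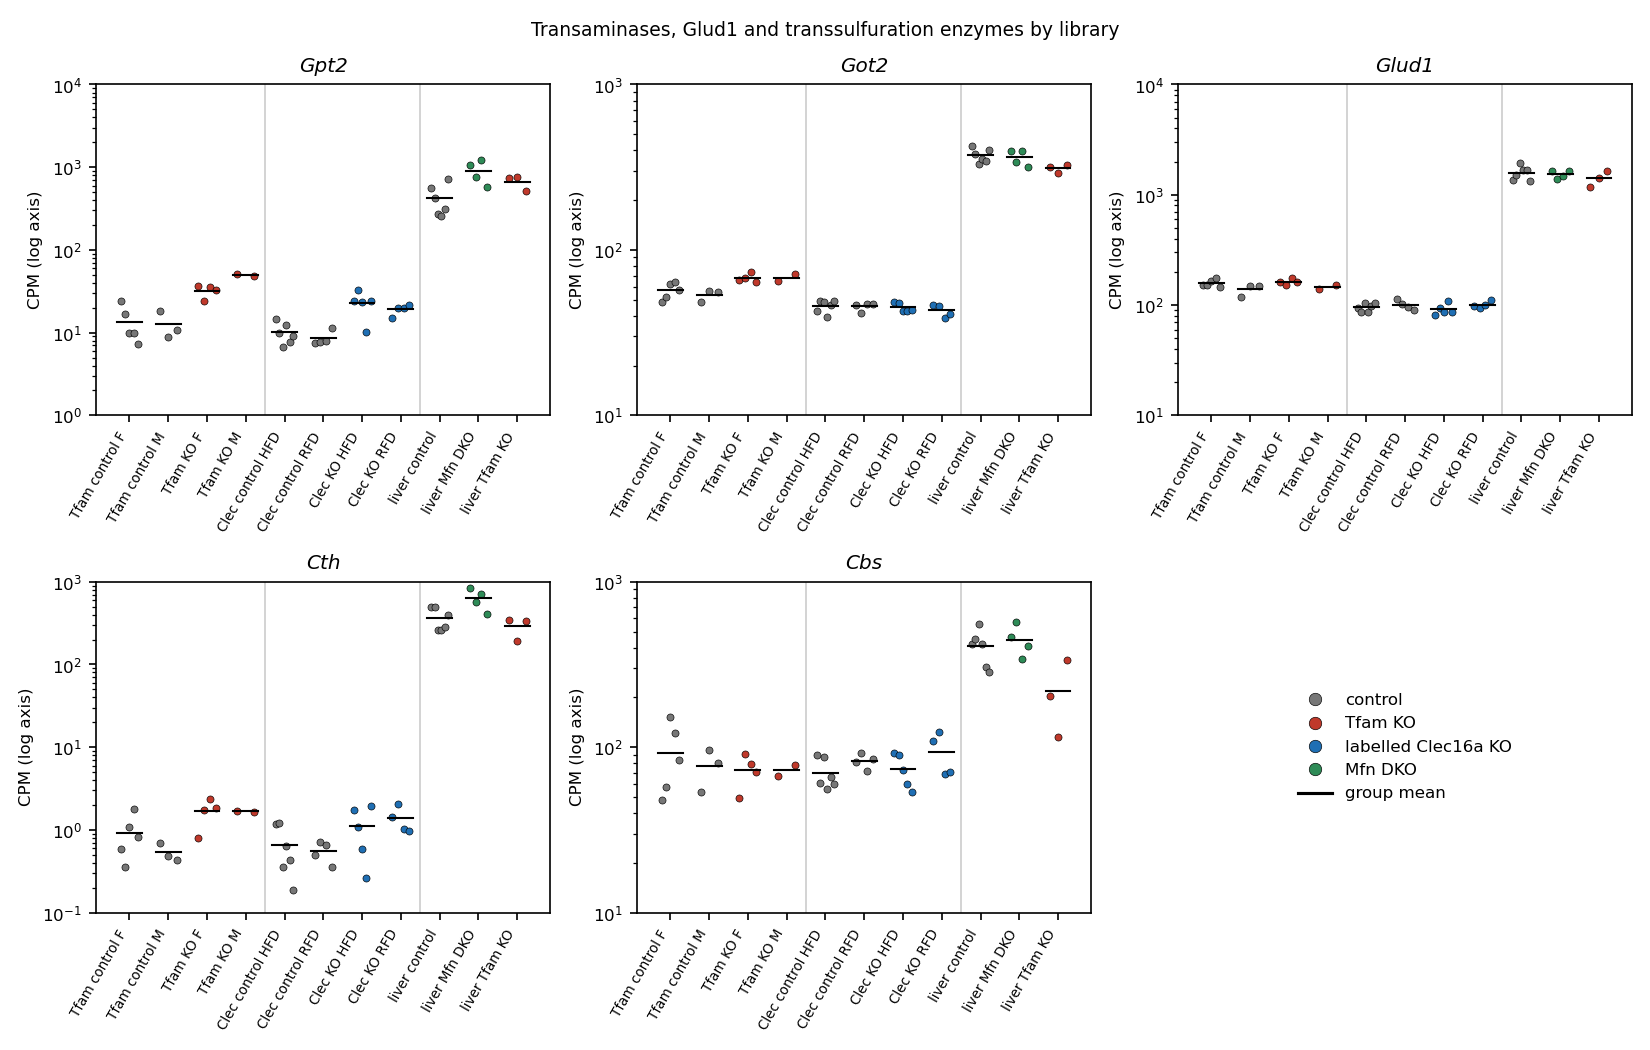
CPM of Gpt2, Got2, Glud1, Cth and Cbs in each library (points, logarithmic y axis), with a bar at the group mean and the same colours by genotype as for the proline and asparagine enzymes. Gpt2 lies higher in each islet knockout group, Glud1 is level within each experiment, and Cbs in Tfam KO livers reaches down to 116 CPM.

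Whether the changes depended on sex, diet or knockout was tested on the differences themselves. No member's Tfam effect was called as different between males and females (0 of 9 by edgeR, 0 with p under 0.05 and 0 by DESeq2), in a fit where 0% of genes were called, 1230 had p under 0.05 and DESeq2 called 34. For Gpt2, male minus female was 0.74 (SE 0.49, adjusted p = 0.904). HFD against RFD called no member in Clec16a controls (0 of 9 by edgeR, 0 with p under 0.05, 0 by DESeq2). In that comparison 0.0406% of genes were called, 973 had p under 0.05 and DESeq2 called 53. In the libraries labelled Clec16a KO, 0.0116% of genes were called, 946 had p under 0.05 and DESeq2 called 41. There HFD against RFD also called 0 of 9 members (1 with p under 0.05, 0 by DESeq2). The 1 was Bcat1, at a mean of 24.3 CPM on HFD and 6.95 on RFD (log2 fold change 1.78, SE 0.70, adjusted p = 0.752). Without KO replicate 4 on HFD, set apart after its values were seen, it was called (2.10, SE 0.40, adjusted p = 0.0366, edgeR). In that fit 0.101% of genes were called higher and 0.0593% lower. The interaction of genotype and diet called 0 of 9 by edgeR (0 with p under 0.05, 0 by DESeq2) and 0% of genes. Over all genes 406 had p under 0.05 and DESeq2 called 20.

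The Mfn DKO and Tfam KO livers share the same 6 controls, so they were also compared with each other. No member of 8 was called by edgeR (4 with p under 0.05), while DESeq2 called 4. Of all 17024 genes tested, edgeR called 0.106% higher and 0.188% lower, 3480 had p under 0.05 and DESeq2 called 1065. Tfam KO minus Mfn DKO was 1.56 (SE 0.42, adjusted p = 0.101) for Pycr1, 2.31 (SE 0.65, adjusted p = 0.101) for Aldh18a1, -1.12 (SE 0.32, adjusted p = 0.107) for Cth and -1.03 (SE 0.33, adjusted p = 0.126) for Cbs. For Asns it was 0.39 (SE 0.82, adjusted p = 0.808). Without Tfam KO replicate 3, edgeR called Pycr1 (1.95) and Aldh18a1 (2.85) higher and Cth (-1.24) and Cbs (-1.49) lower in Tfam KO, with adjusted p of 0.00201, 2.41e-04, 0.0347 and 0.00695. In that fit 13.9% of all genes were called higher and 10.1% lower.

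The Tfam effect was compared between islets and livers in a joint fit, where 19.7% of genes were called. Islet minus liver effect was -1.94 (SE 0.38, adjusted p = 0.00134) for Pycr1, -4.04 (SE 0.59, adjusted p = 1.01e-04) for Aldh18a1 and -5.35 (SE 0.80, adjusted p = 1.30e-04) for Asns. It was 1.59 (SE 0.48, adjusted p = 0.0214) for Cth and 0.57 (SE 0.15, adjusted p = 0.00925) for Got2. The proline and asparagine enzymes thus rose more on the log2 scale in livers, from far lower levels. Without Tfam KO liver replicate 3 the first 3 differences were -2.34, -4.58 and -5.91, and without replicate 2 they were -1.59, -2.71 and -4.19. The call of Cth was lost without liver replicate 2 (1.37, adjusted p = 0.0895). The other 4 members were not called: Gpt2 0.97 (adjusted p = 0.135), Cbs 0.69 (0.281), Glud1 0.24 (0.362) and Bcat1 -0.93 (0.688). Without replicate 3 they were again not called, with Cbs nearest at 1.14 (0.0553). In the fit without replicate 3, 12.9% of all genes were called higher and 18.2% lower.

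A second joint fit, where 16.3% of genes were called, compared the Tfam effect with the mean Clec16a effect over both diets. Tfam minus Clec16a was -0.88 (SE 0.27, adjusted p = 0.0244) for Pycr1, -5.82 (SE 1.16, adjusted p = 6.44e-04) for Bcat1 and 0.33 (SE 0.09, adjusted p = 0.0111) for Got2. Without Clec16a KO replicate 4 on HFD these were -0.999, -5.99 and 0.32, all called. In that fit 9.52% of all genes were called higher and 10.5% lower. Pycr1 and Bcat1 thus rose more in the libraries labelled Clec16a KO, and Got2 in the Tfam KO. The Pycr1 call was lost without male Tfam KO replicate 1 or 2 (adjusted p = 0.0704 and 0.0677), and the Got2 call without male Tfam KO replicate 2 (0.0564). By their RNA all 19 Clec16a islet libraries are female, whereas the Tfam islets hold both sexes, so that sex is not balanced in this comparison. The other 6 were not called, among them Aldh18a1 (-0.19, SE 0.14), Asns (-0.06, SE 0.22) and Gpt2 (0.43, SE 0.31).

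The isozymes of the 3 transaminases were read beside them in deposited TPM. Bcat1 made up at most 0.492% of Bcat1 and Bcat2 in control islets, and 7.91% (3.84 to 11.4) and 25.9% (0.473 to 38.8, or 32.3% on average without KO replicate 4) under the Clec16a KO label on RFD and HFD. Gpt2, against the cytosolic Gpt, went from 42.5% to 69.2% in female Tfam islets, from 41.5% to 76.4% in males, and from 27.7% in control to 54.1% and 56.98% in Mfn DKO and Tfam KO livers (65.5% without Tfam KO replicate 3). Got2 went the other way against the cytosolic Got1, from 51.2% to 37.2% in female Tfam islets, although Got2 itself was higher there. Got1 rose more, from a mean of 27.8 to 60.4 CPM (log2 fold change 1.12, SE 0.07, adjusted p = 2.22e-08, edgeR).

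**Figure D5:**
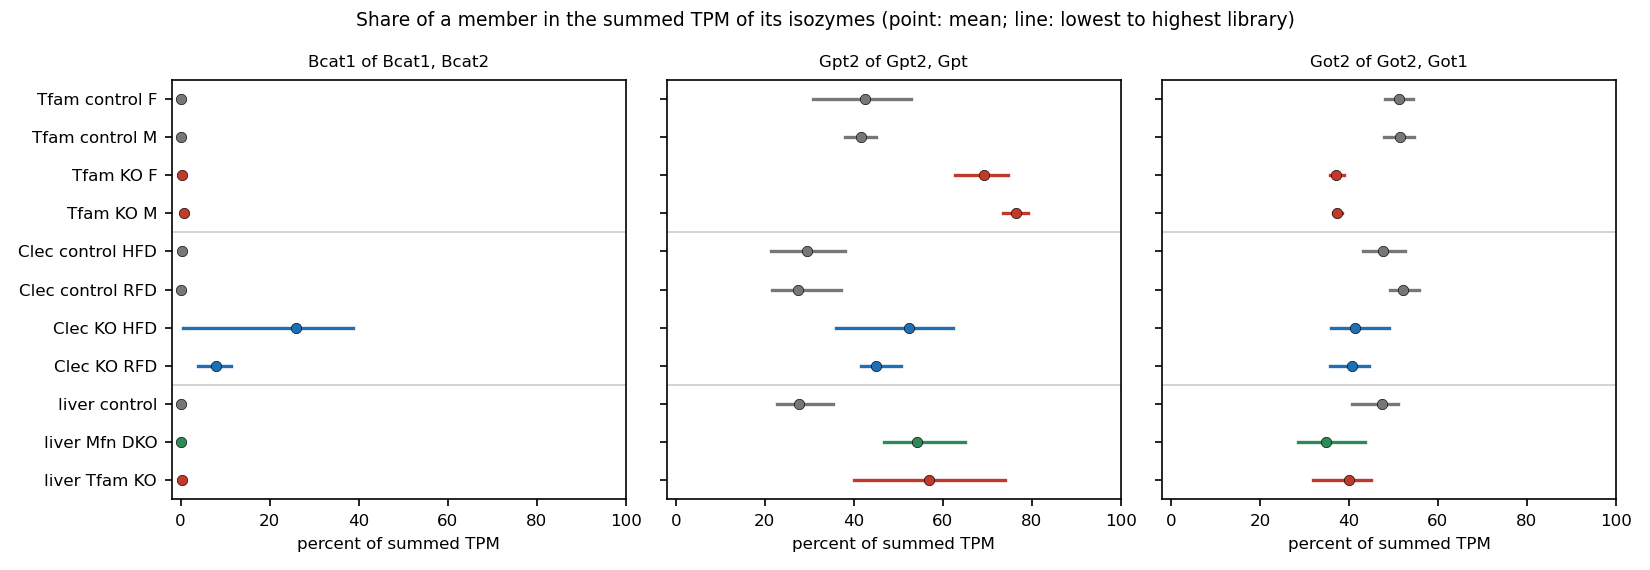
Share of Bcat1, Gpt2 and Got2 in the summed deposited TPM of their isozymes (percent, x axis) in each of the 11 groups (rows), with the mean as a point and the lowest to highest library as a line. Gpt2 goes from 42.5% to 69.2%, and Got2 from 51.2% to 37.2% in female Tfam islets.

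The other genes of these pathways, 62 in all, gave a mixed picture. In Tfam KO islets 11 of 57 tested were called higher and 9 lower, under the Clec16a KO label 8 and 3 of 56 on RFD and 6 and 4 of 56 on HFD, in Mfn DKO livers 5 and 1 of 62 and in Tfam KO livers 9 and 20 of 62. Without Clec16a KO replicate 4 the HFD counts were 10 and 9, and without Tfam KO liver replicate 3 the liver counts were 15 and 29. All-gene shares called higher and lower were 11.6% and 9.29% in Tfam KO islets, 3.99% and 3.54% on RFD and 5.62% and 3.95% on HFD. They were 5.23% and 4.64% in Mfn DKO livers and 18.1% and 11.3% in Tfam KO livers. Without the same libraries they were 10.5% and 9.53% on HFD and 22.8% and 18.99% in Tfam KO livers. Psat1, the phosphoserine transaminase of serine synthesis, was called higher in all 5, from 11.1 to 42.7 CPM in Tfam islets (log2 fold change 1.94, SE 0.15, adjusted p = 1.17e-07, edgeR) and from 1.14 to 168 CPM in Tfam KO livers. Slc7a11, the cystine importer, rose from 0.486 to 6.02 CPM in Tfam KO islets (log2 fold change 3.64, adjusted p = 5e-07, edgeR).

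Of the other proline genes, none of the 8 tested was called higher in Tfam KO islets, and 2 were lower, among them Aldh4a1 of proline breakdown (log2 fold change -0.32, adjusted p = 0.00773, edgeR). In Tfam KO livers, with and without replicate 3, 1 of 9 was higher and 4 lower, among them Oat, the ornithine transaminase, from 698 to 231.5 CPM, and Prodh, which starts proline oxidation (log2 fold change -1.39, adjusted p = 0.025, edgeR). Bcat2, the mitochondrial counterpart of Bcat1, fell in Tfam KO islets from 22.5 to 16.4 CPM. Glul, glutamine synthetase, fell under the Clec16a KO label, from 517 to 222 CPM on RFD and from 544 to 269 on HFD. In Tfam KO islets it went the other way, as the only 1 called higher of 6 glutamate and glutamine genes tested. Tfam minus Clec16a effect was 1.33 for Glul (SE 0.14, adjusted p = 6.70e-08, edgeR). In Tfam KO livers 8 of 12 other transaminases were called lower and 2 higher, where 11.3% of all genes were called lower and 18.1% higher.

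Lists of stress and cell type markers were read beside these results. All 13 stress-response genes, which include Psat1 and Slc7a11, were called higher in Tfam KO islets, 11 in each Clec16a comparison (13 on HFD without KO replicate 4), 8 in Mfn DKO livers and 11 in Tfam KO livers (11, with 1 lower, without replicate 3). In Tfam KO islets 8 of 8 β-cell markers were called lower, with a summed level of 105715 to 141413 CPM against 188409 to 295182 in controls, and 2 of 8 on each diet in Clec16a islets (4 on HFD without KO replicate 4). Of 3 δ-cell markers 2 were lower in Tfam KO islets, with sums of 2535 to 3663 CPM against 2391 to 7501 in controls. Among 5 tested endothelial markers 3 were higher and 1 lower in each Clec16a comparison, with sums of 177 to 282 CPM in KO and 149.6 to 198 in controls. Stellate and fibroblast markers were higher in 2 of 6 (Tfam and RFD) and 4 of 6 (HFD), with HFD sums of 60.2 to 108 CPM in KO and 37.9 to 70.0 in controls. In Mfn DKO livers 2 of 7 were higher, with sums of 339 to 404 CPM against 273 to 357 in controls. Acinar markers, at 1049 to 30143 CPM over all islet libraries, were called in 1 of 12 (lower) in Tfam, 1 of 12 (higher) on RFD and 0 of 12 on HFD. In Tfam KO livers 4 of 8 hepatocyte markers were lower, with sums of 21867 to 92647 CPM against 92704 to 137500 in controls, and 6 of 8 without replicate 3, where 5 of 7 macrophage and Kupffer markers were lower too (0 of 7 with it). The shares of all genes called in each comparison are those given above with the pathway genes. The part of these lists in the members' changes was not tested.

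Sex in Tfam islets and livers, and the sequencing lane named in the deposited files of the Clec16a islets, gave the following differences in mean log2 CPM within each batch. For Pycr1 the Tfam difference was 1.07 in females and 1.25 in males, and for Gpt2 1.36 and 2.04. On RFD Pycr1 differed by 1.95 and 2.24 in lanes 7 and 8 and Bcat1 by 5.70 and 5.58, with 1 KO library in lane 8. On HFD Pycr1 differed by 2.27 and 1.52 and Asns by 0.73 and 0.26, where the 3 KO libraries of lane 8 include replicate 4. Without it the lane 8 values were 2.22 and 0.47. In Mfn DKO livers, whose sex was read from the RNA, Pycr1 differed by 0.97 in females and 2.07 in males, Aldh18a1 by 2.05 and 2.41 and Asns by 5.94 and 5.40. In Tfam KO livers, with 1 male, they differed by 2.23 and 3.73, 3.05 and 4.30, and 5.31 and 5.19. Replicate 3 is 1 of the 2 female Tfam KO livers, and without it the female values were 3.22, 5.44 and 7.97. Each of the differences printed here kept the sign of the pooled one. Some members with small changes did not. Cbs on RFD differed by -0.10 in lane 7 against 0.13 pooled, and Glud1 by 0.16 in male Mfn DKO livers against -0.03 pooled.

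Over all 11 groups, deposited TPM ordered Pycr1 from the libraries labelled Clec16a KO on HFD (median 105, 22.8 to 130.3) and on RFD (73.6) through the Tfam KO islets (40.9 in males and 35.1 in females) to the control livers (0.262). Of the 10 pairs of neighbours in that order, 5 had overlapping ranges. For Aldh18a1, Asns and Cbs 9 of 10 did, for Cth, Gpt2, Got2 and Bcat1 8, and for Glud1 7. By median, Asns ran from the female Tfam KO islets (159.6 TPM, 135 to 178) to the Tfam KO livers (57.9, 3.08 to 191.7). The Mfn DKO livers (41.8) came next and the control livers last. The highest Tfam KO liver was thus above every islet library. Cth was highest in Mfn DKO livers (611 TPM), and Gpt2 in Mfn DKO (426) and Tfam KO (406) livers. Deposited TPM was not scaled by TMM, so this order is a description and can differ from the tests on counts. In Tfam islets Glud1 had at most 83.5 TPM in controls and at least 89.2 in KO, yet it was not called. Gpt2 in Tfam KO livers was not called either.

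How alike the members' patterns were was described by Pearson's r over the 46 libraries, on log2 CPM minus the mean of the controls of the same experiment and, where labelled, sex or diet. The libraries share knockouts, controls and depth, so r describes them and was not tested. Aldh18a1 and Asns were the most alike (r = 0.901), ahead of Pycr1 and Aldh18a1 (0.763), Pycr1 and Gpt2 (0.644) and Pycr1 and Bcat1 (0.643). Among 11186 genes with a mean of at least 1 CPM in each experiment, the most like Pycr1 were Rcc2 (0.932), Cdkn1a (0.930) and Gdf15 (0.921). Bcat1 itself does not reach that level in livers or in Tfam islets. Smox (0.966), Tpm1 (0.966) and Mthfd2 (0.960) were the most like Aldh18a1, and Marveld3 (0.946), Plekha1 (0.946) and Ctsl (0.942) the most like Asns. Bcat1 was most like Aldh1a3 (0.920), and Gpt2 most like Wipf3 (0.872). Glud1 reached no more than 0.672, with Cpq.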

How the data were processed

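Islet and liver RNA was read as 151-base pairs in 46 libraries. The deposited tables give, per the file headers, a raw count, a CPM and a TPM for each of 55487 genes. The authors' CPM equals the count over the library's total, and the authors' TPM is scaled by length. The submitters' processing notes name STAR 2.6.1b, RSEM 1.3.1, featureCounts and GRCm38, with no roles, and the strand setting of counting is not given in the sources used here. Counts were tested with edgeR 4.0.16 in R 4.3.3 (quasi-likelihood, TMM, filterByExpr), separately for Tfam islets (sex as a term), Clec16a islets and livers, and jointly to compare effects, with Benjamini-Hochberg adjustment over all genes and calls at 0.05. Promoter sequences are from RefSeq. The code was tested on simulated data. DESeq2 1.42.0, other filters and scalings, covariates and leaving out each library were the alternatives. The naming rule took all 9 members and, per pathway and comparison, at most 3 other genes, those with the smallest adjusted p. The members and lists were chosen with earlier results of these data known. No replicate pair agreed within sampling noise (81 pairs). p-values measure the spread between these libraries. Results for some pathway genes are not reported here.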

Additional observations from a re-analysis of the deposited data

Results flagged for a closer look

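In 6 of 71 sets of values, each 1 member in 1 group of 4 to 6 libraries, 1 library lay far from the rest by Dixon's criterion. Chance meets that criterion in about 1 of 20 sets, but these sets share libraries and are not independent. Clec16a KO replicate 4 on HFD was low for Pycr1 (41.2 CPM) and Aldh18a1 (101 CPM). Mfn DKO liver replicate 4 was low for Pycr1 (1.03 CPM). Clec16a control replicate 1 on HFD was high for Aldh18a1 (129 CPM), and Clec16a control replicate 4 on RFD for Gpt2 (11.4 CPM). Control liver replicate 4 was high for Bcat1 (0.0822 CPM), at a handful of counts.

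For 8 results the effect itself differed between groups in a joint edgeR fit. The Tfam effect in islets minus that in livers was -1.94 for Pycr1, -4.04 for Aldh18a1, -5.35 for Asns, 1.59 for Cth and 0.57 for Got2 on the log2 scale. The Tfam effect minus the Clec16a effect in islets was -0.88 for Pycr1, 0.33 for Got2 and -5.82 for Bcat1.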

How the results depend on the processing

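Of 1397 alternative values of member results, 1324 kept their direction and side of the threshold, 46 were no longer called, 16 became called and 11 changed sign. None of the 31 called results changed sign. With the replicate number as a block, 1 member was called in Mfn DKO livers (4 without the block; all genes 169 against 1681) and 2 in Tfam KO livers (4 without; 395 against 4992), all-gene counts were 975 against 1652 on HFD and 6 against 50 between the knockout livers, and Asns on RFD had an adjusted p of 0.0594. Same-numbered libraries correlated at a median of 0.0653 (-0.153 to 0.212) in Tfam islets and -0.0163 (-0.2535 to 0.307) in Clec16a islets. In livers it was 0.0873 (-0.343 to 0.350). Libraries of unlike number were not correlated beside them, so these values do not settle whether equal numbers pair libraries. DESeq2 called 4 members between Tfam KO and Mfn DKO livers, where edgeR called 0, with 1065 genes against 50, and 2870 genes in Mfn DKO livers. With only the 2 groups compared, all-gene counts were 4338 in Mfn DKO livers, 3228 in Tfam KO livers and 7 between them, where requiring 10 counts gave 27. For sex, diet and their interactions with genotype, all-gene counts lay between 0 and 53 in every setting with all libraries. Leaving out each library gave 6 to 6 members called for Tfam islets, 3 to 5 on RFD, 4 to 5 on HFD, 0 to 1 between diets in Clec16a KO, 1 to 5 in Mfn DKO livers, 3 to 4 in Tfam KO livers, 0 to 4 between the knockout livers, 4 to 5 for islet against liver and 1 to 3 for Tfam against Clec16a.

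The changes of sign were all in values that were not called, and the cause was not tested. Leaving out single libraries moved Glud1 between -0.0365 and 0.0808 on RFD and between -0.0892 and 0.0182 in Mfn DKO livers, Cbs between -0.0169 and 0.168 on HFD and between -0.00708 and 0.242 in Mfn DKO livers, and Asns between -0.76 and 0.94 from Mfn DKO to Tfam KO livers. With the replicate block Cbs was -0.0162 in Mfn DKO livers and Asns -0.66 between the knockout livers. With at least 10 counts required in every library Bcat1 was not tested. Bcat1 had 3 counts or fewer in 11 of 13 livers, so no fold change is given there.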
